A study of Rattus norvegicus with 458 samples.

Results

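Predicted miRNAs are names in a small RNA count table that stand for hairpins the study found in the rat genome with miRDeep2 and that carry no known miRNA name. They were chosen by measured values: a name had to consist only of predicted hairpins and had to reach a mean of 1 CPM (counts per 1000000, the counts of a name scaled to a library total of 1000000) in at least 1 of 23 tissue labels. Of 7534 names in the table, 3942 were predicted only, and 551 of these met the rule. The other names were 2797 known miRNAs and 795 composites of a known and a predicted miRNA. Because tissue means chose the 551 names, their levels by tissue are given as a description, with no test.

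The tissues came from naive Sprague Dawley rats, 12 to 13 weeks old, 5 males (rats 2 to 6) and 5 females (rats 7 to 11), and no rat was treated. Each of 19 tissues was sequenced from all 10 rats, the testis from the 5 males, and the ovary and the uterus from the 5 females. The dorsal root ganglion had 10 libraries of 2 pools, 1 per sex, which are not separate animals. Most libraries were sequenced in 2 runs, and the runs were summed to 215 libraries, of which 208 were used after the duodenum of rats 2, 4, 7 and 11 and the hippocampus of rats 2, 6 and 7 were left out.

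A miRNA is a short RNA that Drosha and then Dicer cut from a hairpin transcript, and it guides Argonaute to messenger RNAs through its seed, the bases near its 5′ end. Because the cuts are precise, reads of a true miRNA pile up on 1 start and fall in a narrow band of lengths, mostly from the 5p or the 3p arm of the hairpin. A prediction program looks for that pile of reads on a foldable stretch of genome, so fragments of tRNA, rRNA and repeats can also be proposed, and tissue panels are used to see whether a proposed miRNA behaves as a gene of one cell type.

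Of the 19 known marker miRNAs checked, all but 1 were highest under a label they mark, for example miR-122-5p in liver at 33952 CPM and miR-34c-5p in testis at 278169 CPM. The exception was miR-204-5p, listed for kidney and known from brain too, which was highest in cerebellum at 12188 CPM. One library stood apart: the ovary of rat 11 held 23.1 CPM of the testis marker miR-34c-5p and 270908 CPM of the intestinal miR-215, and no count of miR-202-5p, a gonadal miRNA. Library totals ran from 376401 to 653651 counts in testis and from 946725 to 17725805 elsewhere, so that 1 count was worth 2.66 CPM in the shallowest testis library and 0.0564 CPM in the deepest library of all. Intervals on single counts cover counting error only, because the reads carry no molecular identifiers. The 551 names together held 0.210% of 1013431482 counts, and the 10 with the most counts held 52.4% of that.

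For predicted names the columns of the table did not follow their labels, and every level by tissue below has to be read with that. In 14 cases 2 columns are labelled with the same library, flow cell and lane. In these pairs 6780 of 6806 known names with a count (99.6%) had the identical count in both columns, and 698 of 698 composite names did. Of the predicted miRNAs with a count, 381 of 3526 (10.8%) had the identical count, and 231 of the 381 lay in 1 pair, a liver library of rat 7 whose columns were identical throughout. The other 13 pairs had 150 of 3295 (4.55%). The summed counts of predicted miRNAs differed between the columns of a pair by a median of 5.73-fold and by up to 17.04-fold. The largest ratio for known names was 1.0001-fold.

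**Figure D1:**
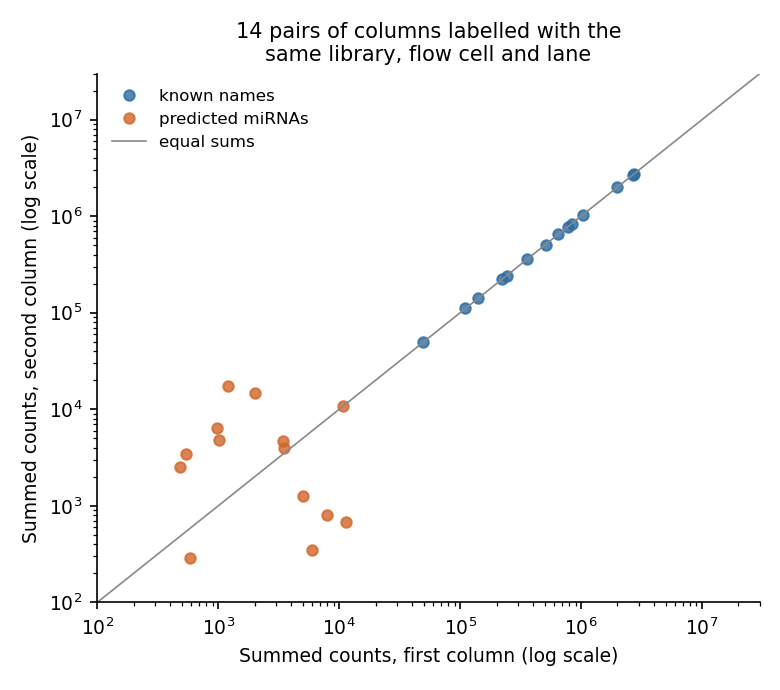
Summed counts in the first (x axis) and second (y axis) column of the 14 pairs of columns labelled with the same library, flow cell and lane, both axes on a log scale; blue points are known names, orange points the 551 predicted miRNAs, and the line marks equal sums. The blue points lie on the line, while orange points lie up to 17.04-fold off it.

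The reverse also occurred. Over all 3942 predicted-only names, 14 pairs of columns were identical, and 13 of these pairs were labelled as different libraries, 12 of them as different tissues. The columns of hippocampus rat 3 and kidney cortex rat 7, for example, shared all 4980 predicted counts on 376 names, while 1.69% of their known names had the same count. In the 13 pairs the shared predicted counts ranged from 337 to 6621, on 83 to 383 names, and 0.72 to 5.82% of known names agreed. The 14th pair was the same liver library of rat 7. The total that the labels give for each run equalled the sum of its column in every run, predicted counts included. Predicted-only names made up a median of 0.230% of a column. CPM of predicted names therefore rests on totals of mostly other names, and a mismatched column would scale them by the depth of another library.

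The 2 runs of a library gave the same picture. Of the 215 libraries, 208 had exactly 2 runs, and these include libraries left out of the tissue means. For all names of at least 200 counts, counts were scaled to the summed counts of the names compared, and 10 was added before log2. Values were then centred by name over all runs. The Pearson r between the 2 runs had a median of 0.971 for 792 known names and of -0.0020 for 425 predicted-only names. The points of each r are names, which share a library and its depth, so these values describe the table and carry no p. Names of like abundance, with 326 to 1881 counts in all, gave a median r of 0.440 for 181 known names and 0.0362 for 214 predicted-only names. These were scaled to the column total, with a smaller number added before log2, so the 2 sets of values differ in more than abundance. At like abundance, 168 of the 208 libraries had an r under 0.3 for predicted-only names and 46 for known names. Over all names of at least 200 counts these were 169 and 0. The testis was among the labels with no library at 0.3 or more, its 5 values lying between -0.0660 and 0.0729.

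**Figure D2:**
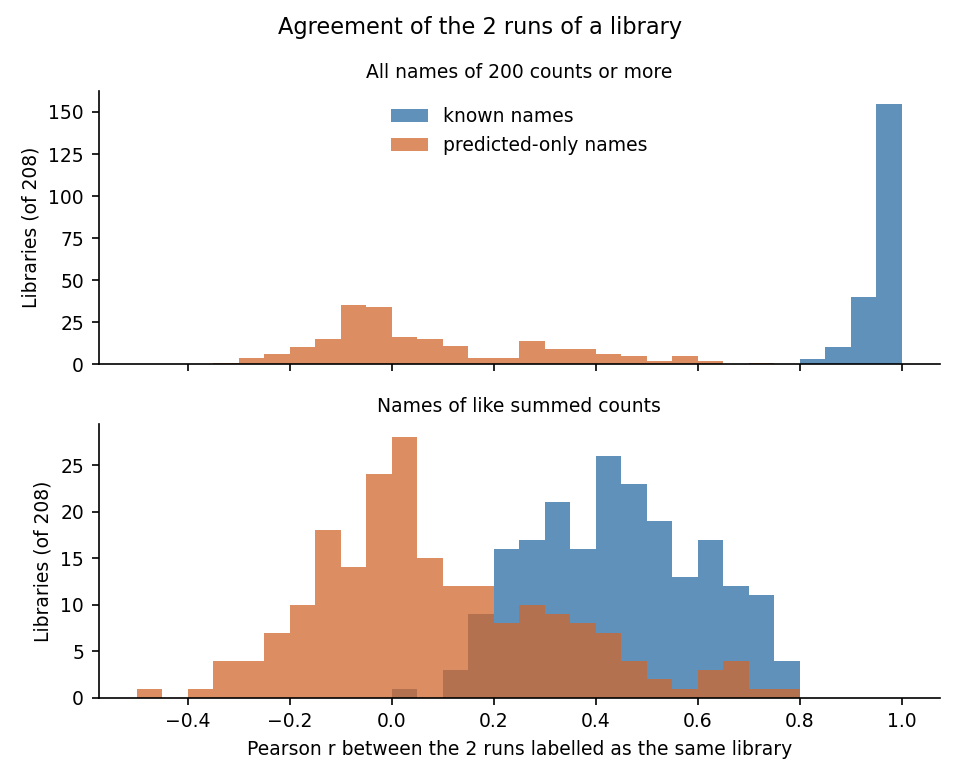
Histograms of Pearson r (x axis) between the 2 runs labelled as the same library, counted over 208 libraries (y axis), for known names in blue and predicted-only names in orange; the upper panel uses all names of 200 counts or more, the lower panel names of like summed counts. Known names center on 0.971 above and 0.440 below, predicted-only names on -0.0020 and 0.0362. The 2 panels also differ in scaling.

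The mismatch was not total. The run with the most similar profile carried the same tissue label for 424 of 444 runs (95.5%) by known names, for 322 (72.5%) by composite names and for 96 (21.6%) by predicted-only names. The 444 runs, and those by flow cell below, include the libraries left out of the tissue means. Among runs of the flow cell D1GBMACXX the best match by predicted-only names had the same label in 20 of 215 (9.30%), and among runs of C2BUMACXX and D2C4RACXX in 51 of 215 (23.7%). Biceps femoris had the most such runs on the latter, 8 of 10. Known names gave 183 and 186 of 215 on the same flow cells. The isomiR table, which counts each read sequence, held the same sums in 81401 of 81401 cells with a count for a predicted-only name, over the 215 runs compared. No column was moved to another label here, and "testis" below means columns labelled testis.

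The sequences of the members do not depend on the labels, and those on which the results turn are shown first. For each the most counted sequence of the name is printed from 5′ to 3′, in lower case with the seed (bases 2 to 8) in capitals. The first group holds the members with the highest means, 2 of which share a seed and differ by T9C, counted from 1 at the 5′ end, with the base of chrX_48792-3p first.
chrX_48792-3p: aTGGGCTGtagaatttctc
chr2_7340-5p with chr2_7344-5p: aTGGGCTGcagaatttctc
chr4_14369-3p: tGAAATTTcgtttctgtgaggggac
chrX_48677-5p: aCCCTTGAggatgtagctcagtgg
chr1_2215-3p: gTTGGCACtttcttgagtgagt
chr20_47347-5p: tCACACTTccacatggctg
The second group is shown because its members were present in both runs of most libraries of their highest label.
chr3_12902-3p: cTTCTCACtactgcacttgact
chr5_17822-3p: aCTGAGGAcagctgacaccag
chr8_25065-5p: aTCATCATcatcattatcatca
The third group ends in CCA, the 3 bases that are added to the 3′ end of every mature tRNA, or shares the seed TGGGCTA.
the 7-part name beginning chr15_38550-5p: aTCCCGGAcgagccccca
the 4-part name beginning chr14_37460-5p: tCCCTGTTcgggcgcca
chr12_33737-3p with chr12_33739-3p: aTCCTGCCgactacgcca
the 5-part name beginning chr12_34257-3p: cCCGGGTTtcggcacca
the 4-part name beginning chr1_3089-3p: cTGGGCTAcacattttt
The last group is set beside known rat miRNAs, whose sequences are from RefSeq, assembly GRCr8.
chrX_47795-3p: cCGTCCTGagcttgtcgagct
rno-miR-676: cCGTCCTGagcttgtcgagcta
chr4_14984-5p: aAAAGTTCtgagacactctgact
rno-miR-148a-5p: aAAGTTCTgagacactctgactc
chrX_48156-3p with chrX_48178-3p: aTTGGGGAcgcttcgcattcat
rno-miR-450b-3p: aTTGGGGAcgcttcgcattca

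The leading member was chrX_48792-3p, whose name notes the seed of miR-3620-5p, with a testis mean of 2964 ± 2462 CPM (SD, n = 5) and 89.0% of its summed tissue means there. By library it stood at 3492 CPM in rat 2, 6145 in rat 3, 388.6 in rat 4, 585.8 in rat 5 and 4211 in rat 6. All 5 testis libraries lay above 4 of the 5 ovary libraries, which had no count, while the ovary of rat 11 stood at 1619 CPM. Each of these testis values came from 1 of the 2 runs of the library. The run with counts held 4070, 7010, 5059, 3393 and 4737 CPM in rats 2 to 6, and the other run held 0 counts of a summed total of 1167317.

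The counts of chrX_48792-3p lay in 10 runs, 11385 of the 11414 found in all runs. Besides the 5 testis runs these were 1 run each of ovary rat 11 at 8530 CPM, duodenum rat 3 at 2208 CPM, non-glandular stomach rat 4 at 436.4 CPM, kidney medulla rat 8 at 323.0 CPM and hippocampus rat 2, a library left out of the tissue means, at 27.2 CPM. The second run of each of these libraries had 0 counts, where the rate of the first would have given between 20.7 and 13058. The next highest run of any label held 8.84 CPM. The testis label has 10 runs in all, the same number, but only 5 of the 10 runs with counts carry it.

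**Figure D3:**
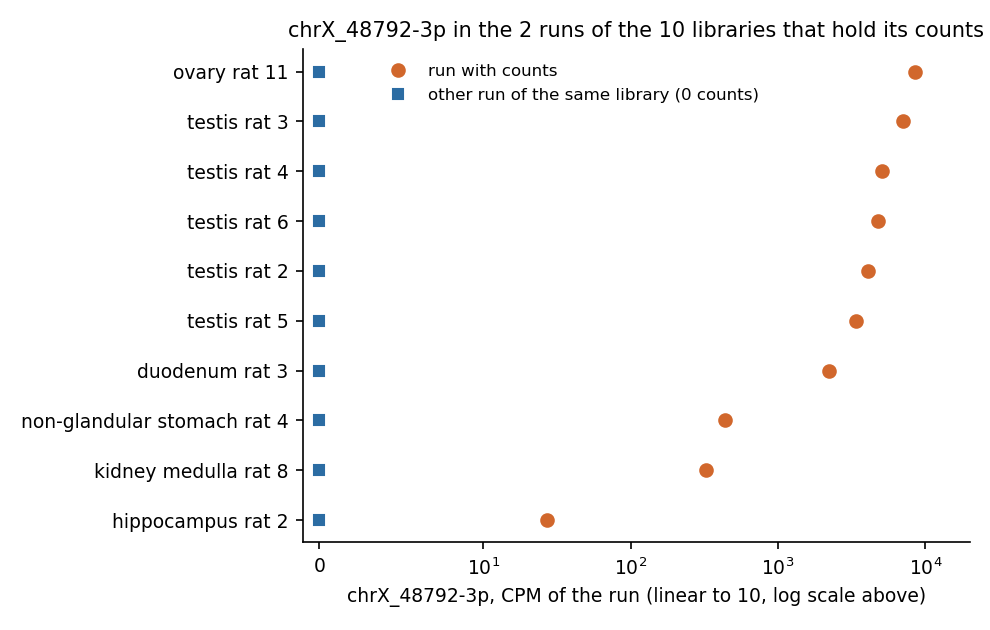
CPM of chrX_48792-3p (x axis, linear to 10 and on a log scale above) in the 2 runs of the 10 libraries that hold nearly all of its counts; orange circles are the run with counts and blue squares the other run. Every blue square is at 0, while the orange circles run from 27.2 CPM in hippocampus rat 2 to 8530 CPM in ovary rat 11.

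The same 10 runs held many other members. Of 508 members with at least 20 counts, 52 had 90% or more of their summed run CPM in these 10 runs, and between 7.15 and 79.7% of it in runs labelled testis, with a median of 66.9%. None of the 508 had 90% in runs labelled testis. The known testis marker miR-34c-5p stood between 223312 and 324078 CPM in the 5 testis runs of this set and between 6.51 and 141.0 CPM in the other 5.

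chr4_14369-3p, the second member by mean, followed the same runs. Its testis libraries stood at 2207, 2718, 214.2, 412.5 and 2534 CPM in rats 2 to 6, and in each rat the run with no count of chrX_48792-3p had none of it either. Its 5p arm reached 15.7 CPM and had its highest mean under the same label, with an r of 0.974 over 430 runs between the arms. The third, chr2_7340-5p with chr2_7344-5p, carries the same seed as the first and stood at 1316, 2479, 133.1, 251.6 and 1541 CPM. chrX_48677-5p had a testis mean of 785.2 ± 629.5 CPM (SD, n = 5), against 72.2 CPM in ovary, where only that of rat 11 had a count. chr1_2215-3p, whose name notes the seed of miR-96-5p, had 510.6 ± 468.9 CPM, and chr20_47347-5p had 421.2 ± 323.4 CPM (both SD, n = 5). For each of these 3 the SD was close to the mean in size.

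The 3 known names whose tissue means were most like those of chrX_48792-3p over the 23 labels were miR-202-3p, miR-463-5p and miR-202-5p, with r of 0.903, 0.893 and 0.892. All 3 were highest in testis. In the ovary of rat 11, where the member stood at 1619 CPM, each of the 3 had no count. Points in these correlations are labels, each a mean over libraries.

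Other members were present in both runs of their highest label. The mean over libraries of the lower run was computed for each member as a measure of this, chosen after seeing the data. It kept a median of 9.58% of the highest mean over the 551 members and 89.3% over 860 known names of 1 CPM or more, and 231 members kept nothing. Members highest in testis kept a median of 0%, as did the 4 highest in jejunum. Low medians were also those of uterus with 0.266%, duodenum 1.23%, ileum 5.14%, cerebrum 7.01% and dorsal root ganglion 9.46%. The highest were those of cerebellum with 63.3%, hippocampus 57.0%, brainstem 52.5%, glandular stomach 51.5% and liver 47.5%. The shallower run of each testis library held 46443 to 83695 counts, so members of few CPM could read 0 there. The part of depth was not tested. Of 132 members with a highest mean of 10 CPM or more, 34 kept 50% or more.

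Of the members whose highest label was brainstem, the first was chr3_12902-3p. Its mean was 344.9 ± 236.5 CPM (SD, n = 10), from 41.3 to 744.7 with a median of 349.0. The next label was hippocampus at 189.1 ± 175.2 CPM (SD, n = 7), then pancreas at 167.2 ± 278.8 CPM (SD, n = 10), whose median was 36.8, and cerebrum at 150.2 ± 166.5 CPM (SD, n = 10). The ranges of all 4 overlapped, and the pancreas mean came from a few libraries of up to 831.1 CPM. Within a rat the runs could differ widely: the brainstem of rat 7 held 1.55 CPM in one run and 625.5 in the other, while that of rat 5 held 403.1 and 425.8. The lower run kept 62.5% of the brainstem mean.

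chr8_25065-5p, a sequence of repeated ATC triplets, had close means under the 3 highest labels, 33.4 ± 38.8 CPM in hippocampus (SD, n = 7), 32.4 ± 20.7 in brainstem and 22.5 ± 21.7 in cerebrum (SD, n = 10 each). These did not differ beyond their spread. Its median in jejunum was 1.14 CPM, with 1 library at 80.7.

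chr5_17822-3p had the tightest values of the members named here. In biceps femoris it stood at 61.3 ± 13.7 CPM (SD, n = 10), from 36.9 to 87.5 over rats, and the next labels were heart at 25.6 ± 17.6 CPM and soleus at 20.2 ± 13.5 CPM (SD, n = 10 each), the other striated muscles of the panel, with dorsal root ganglion between them at 22.6 ± 61.7. The ganglion mean rested on few libraries, since its median was 0.511 CPM and its highest library 196.5. All 10 biceps runs on the flow cells C2BUMACXX and D2C4RACXX held the member, at 38.7 to 95.9 CPM. Of the 10 runs on D1GBMACXX, 7 held it and 3 had no count. Males and females had the same highest label.

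Of the members whose highest label was liver, the first was the 5-part name beginning chr12_34257-3p, at 255.4 ± 208.4 CPM (SD, n = 10), from 27.1 to 585.9. Testis was next at 250.7 ± 157.7 CPM (SD, n = 5), and the order of the pair lies within the spread. Both runs were close in several rats, 474.4 and 477.9 CPM in rat 4 and 306.9 and 302.0 CPM in rat 9, and far apart in others, 4.92 and 291.7 CPM in rat 8.

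The members with the most counts were spread over all labels. The 7-part name beginning chr15_38550-5p held 251062 counts, 11.8% of those of all members, and was counted in every label shown here: 815.2 ± 629.5 CPM in testis (SD, n = 5), 644.4 ± 541.8 in liver and 429.6 ± 917.8 in ileum (SD, n = 10 each). chrX_47795-3p held 231879 counts, with 1067 ± 805.5 CPM in dorsal root ganglion (SD, n = 10 libraries of 2 pools), from 26.6 to 2295. Testis followed at 990.5 ± 1195 CPM (SD, n = 5). chr2_7516-5p was also highest in dorsal root ganglion, at 470.0 ± 386.9 CPM, with testis at 447.1 ± 381.8. For these 3 the order of the first 2 labels lies within the spread between libraries.

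Over all members the testis was the label of the highest mean for 316 of 551 (57.4%), against 170 of 860 known names of 1 CPM or more (19.8%). Brainstem followed with 35, hippocampus with 31, dorsal root ganglion with 26, liver with 19, cerebrum with 17, glandular stomach and ileum with 16 each, biceps femoris with 15 and heart with 12. The remaining 11 labels had 1 to 8, and whole kidney and kidney medulla had none. The testis libraries are also the shallowest, so that a few reads pass 1 CPM there, and the part of depth in the count was not tested by a fit. With at least 10 counts required in the highest label 150 of 385 members were highest in testis. With the counts scaled to the predicted-only total of each library, and members chosen anew, 43 of 378 were. Among the same 551 members that scaling put 117 highest in testis, still the label with the most, and 62 in brainstem.

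**Figure D4:**
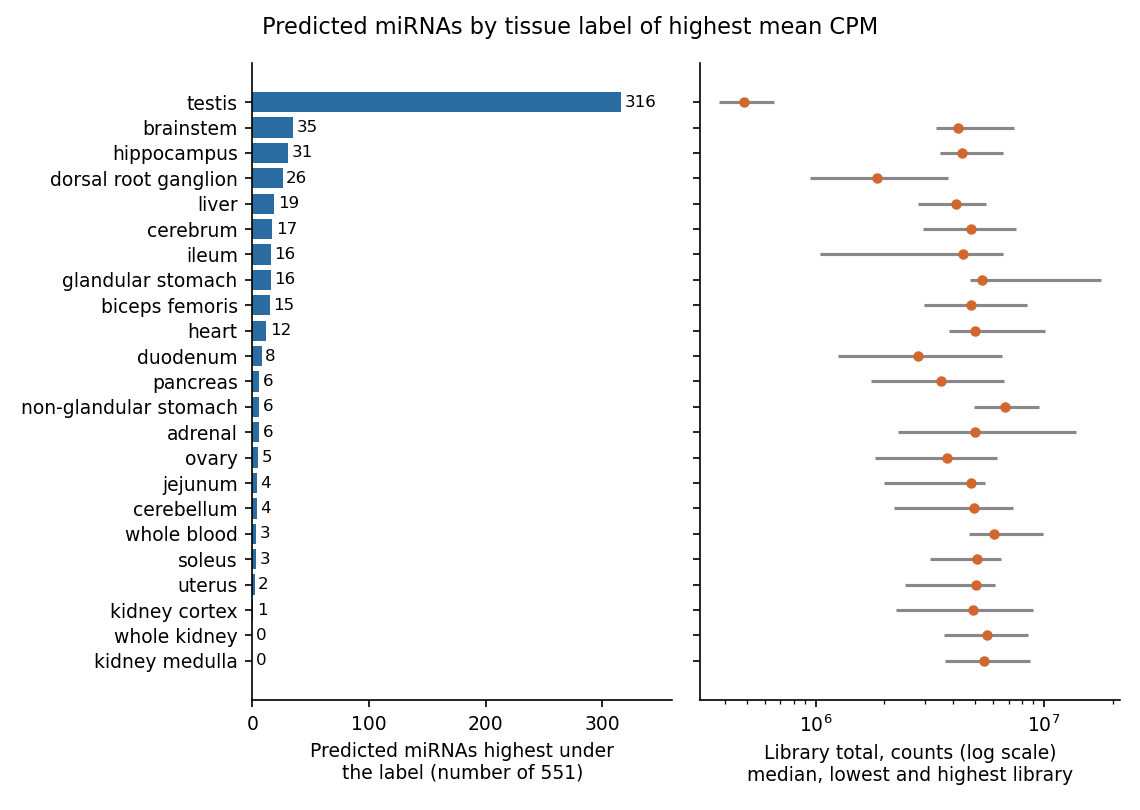
Left, the number of the 551 predicted miRNAs (x axis) with their highest mean CPM under each tissue label (y axis); right, the total counts of the libraries of that label on a log scale, with the median as a point and the lowest and highest library as a line. Testis has 316 members and the lowest totals, 376401 to 653651 counts.

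The share of a member's summed tissue means that lay in its highest label had a median of 25.1% and ranged from 7.65 to 100%. For known names of 1 CPM or more the median was 27.6%. A share of at least 50% was found for 150 members, 136 of them in testis, and a share of at least 90% for 26, all in testis. The 2 names just inside the rule, chr1_5650-5p and the 2-part name beginning chr2_7400-5p, had 1.001 CPM in testis from 2 counts there. Those just outside were chr1_3293-3p with 0.989 CPM in brainstem from 46 counts and chr8_25150-5p with 0.982 CPM in kidney cortex from 28 counts.

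The highest label seldom repeated between groups of rats or runs. Over the 20 labels that both sexes have, 105 of 551 members (19.1%) had the same highest label in males and in females, and 604 of 860 known names (70.2%) did. Between the runs of D1GBMACXX and those of the other flow cells it was the same for 180 of 548 members (32.8%) and for 710 of 853 known names (83.2%). The members had a median of 388 counts in all, and the part of counting error in these shares was not tested.

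The sequences themselves differed from those of known rat miRNAs. The most counted sequence of a member had a median length of 20 bases, from 17 to 51, where 17 is also the shortest read the study kept. Of the members 260 (47.2%) were 17 to 19 bases long and 204 (37.0%) were 21 to 23. Among 588 known rat names of at least 100 counts the median was 22 bases, with 3 (0.510%) at 17 to 19 and 525 (89.3%) at 21 to 23. Members of at least 100 counts, 394 in number, had 43.4% at 17 to 19 bases and 43.1% at 21 to 23.

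**Figure D5:**
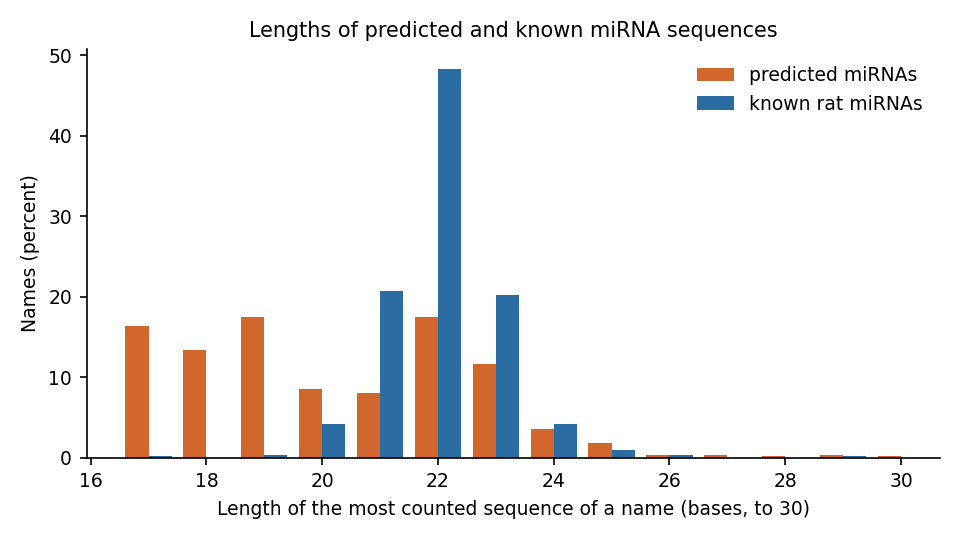
Length in bases of the most counted sequence of each name (x axis, to 30) and the percent of names of that length (y axis), for the 551 predicted miRNAs in orange and 588 known rat miRNAs in blue. Known names pile up at 21 to 23 bases, with 89.3% of them there, while 47.2% of predicted names lie at 17 to 19.

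A 3′ end of CCA was found in 45 members (8.17%), 30 of them of 17 to 19 bases, and in 3 of the 588 known names (0.510%). These members held 36.1% of the member counts in the sequence table and made up 8 of the 20 members with the most counts. The run AGCTCAGT, which occurs in the D arm of many tRNAs, was in 14 members and in 1 known name, and GTTCAGTGG in 3 members and in 0 known names. Both were searched in the printed orientation only, over the whole sequence. chrX_48677-5p, shown above, holds the first of them. A match of these letters describes the sequence and does not say where the read came from.

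The uniformity of the 5′ ends depended on how they were counted. Over all sequences, the most common start of a member took a median of 82.6% of its counts, and that of a known name 92.5%. Known names were those of at least 100 counts, and the 394 members of at least 100 counts had 84.7%. With sequences of at least 10 counts only, which left 474 members and all 588 known names, the medians were 94.9 and 94.5%. The order turned there, but by little and with fewer members. In libraries of the highest label the medians were 90.4 and 91.1%. For names of at least 1000 counts they were 87.4 and 93.5%. Over all sequences, a share of 90% or more was seen in 215 members (39.0%) and in 340 of 588 known names (57.8%). The range was wide among the members with the most counts: 96.2% for chrX_47795-3p, 91.3% for the 7-part name beginning chr15_38550-5p and 25.4% for chr2_7516-5p, whose most counted of 689 sequences held 10.9% of its counts. The first base was T in 42.6% of members and in 36.9% of known names.

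Members formed 468 distinct seeds, of which 50 were shared by 133 members. The seeds TCCCGGA and TGGGCTA had 7 members each, CTCGGTG and CTGGGCT 5 each, and TGGGCTG, that of chrX_48792-3p, 4. The 7 names with TCCCGGA include overlapping composites and the single hairpins chr9_27373-3p, chr1_1271-3p and chr1_4603-5p. They held 165942 counts in the sequence table, and the sequence with this seed shown above ends in CCA. The 7 names with TGGGCTA held 143319. Several of these names list the same hairpins, but each sequence was counted under a single name, composite or not, so they share no reads. Whether their levels are independent was not tested. In the names themselves 152 members carried a note of a known seed, 115 different ones in all, with miR-678 noted for 13 members and miR-378g for 8. By the sequences, 44 members (7.99%) had the seed of one of 724 mature rat miRNAs in RefSeq.

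A few members are close to known rat miRNAs. 20 shared a run of 16 bases or more with a RefSeq mature sequence. chrX_47795-3p is identical to bases 1 to 21 of rno-miR-676 and lies inside the Mir676 hairpin, GRCr8 chrX:69504596-69504684 on the plus strand. chrX_48156-3p with chrX_48178-3p extends rno-miR-450b-3p by 1 base at its 3′ end and matches the Mir450b-1 hairpin, chrX:137721078-137721146 on the minus strand. It was highest in adrenal at 8.69 CPM. chr4_14984-5p carries 22 bases of rno-miR-148a-5p from its second base on, so that its seed is shifted by 1 base from that of the known arm. 6 further members matched the opposite strand of a RefSeq hairpin, those of Mir3596c, Mir3074, Mir3557, Mir126a, Mir3543 and Mir3592, at highest means of 1.06 to 3.42 CPM.

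Members can also be set beside the other name of their own hairpin, and chr4_14984-5p had the partner with the highest mean. Its mean in glandular stomach was 223.6 ± 636.5 CPM (SD, n = 10), with a median of 5.67 and 1 library, that of rat 11, at 2032 CPM. In that library 15099 counts came from one run and 1 count from the other. The 3p arm of the same hairpin, listed as a composite with miR-148a-3p, was highest in pancreas at 593509 CPM, where the 5p member had 78.0 ± 101.9 CPM (SD, n = 10). The r between them over 430 runs was 0.375. Over 16 members that share a hairpin with a composite name of 10 CPM or more, the median r was 0.255, from 0.0378 to 0.408, and 8 of the 16 had the same highest label. The 2 arms of 155 known hairpins, both at 10 CPM or more, had a median r of 0.889, and 95 (61.3%) had the same highest label. The 16 members needed only 1 CPM themselves, and the part of low counts in their r was not tested.

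Arms of 1 predicted hairpin lay between these medians. 22 hairpins had both arms among the members, with a median r of 0.633 over 430 runs, and 14 of them had the same highest label for both arms. These arms needed 1 CPM each, not the 10 CPM of the known hairpins, and the part of low counts was not tested. The pair of chr1_4392, highest in biceps femoris in both arms at 8.04 and 11.1 CPM, had an r of 0.838. That of chr18_44056 was highest in brainstem at 2.19 and 13.1 CPM, with an r of 0.541. The 2 names of a predicted hairpin lie in the same columns, whatever their labels, so r does not use the labels. Both names are scaled by the same column total, to which predicted-only names add little. The mismatch can therefore still enter r through that total, and the label of the highest mean depends on the labels as well. These correlations are over runs that share libraries and depth, and are given as a description.

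The choice of members used tissue means over both sexes, not the difference between females and males. A single high library can still both bring a name past the rule and make a call, so the choice and this test are not independent. chr19_44608-5p, for example, had its highest mean, 5.25 CPM in hippocampus, from 1 library and was called there. chr4_14982-3p in heart, chr17_42406-3p in glandular stomach, chr19_44386-5p in biceps femoris and chr2_8198-3p in adrenal were also called under their highest label. There 92.3, 93.1, 99.7 and 97.3% of the summed CPM lay in 1 library. For chr4_14982-3p, chr2_8198-3p and chr19_44608-5p the mean of the lower run under that label was 0 CPM. The adjusted p of these calls is therefore not independent of the choice of members. The sexes were compared within each of 19 tissues with edgeR's quasi-likelihood test on the counts of all names. Benjamini-Hochberg adjustment was over the 1230 names tested in a tissue, with a threshold of 0.05. Over all names 1.02% of 23370 tests were called. Of the 551 members 370 were tested, and 55 of 7030 tests (0.782%) were called, on 50 members. This share was below that of all names, but the order turned with 2 alternatives. DESeq2 called 189 of 7030 member tests and 502 of 23370 over all names. With no filter beyond 1 count, edgeR called 531 of 10374 and 961 of 135204. The groups are those of the column labels, with the mismatch described above.

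Whole blood had 31 of the 55 calls, all higher in females. There 8.38% of the members tested were called, beside 8.46% of all names. Of 370 members tested in each tissue, adrenal had 8 calls, glandular stomach 6, and cerebellum, kidney medulla and non-glandular stomach 2 each. Over all 1230 names these tissues had 63 (5.12%), 18 (1.46%), 9, 8 and 2 calls. Cerebrum, heart, hippocampus and biceps femoris had 1 member call each, beside 1, 2, 1 and 3 over all names. In none of the 55 did the values of the sexes separate, and in 50 the highest library held 50% or more of the summed CPM, with a median of 86.5% over the calls. In 17 one sex had no count in any library. Separation, the part of 1 library, absence in one sex and the direction of calls were counted for members only, not over all names.

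The call with the lowest adjusted p was chr4_14982-3p in heart, a sequence that shares 16 bases with miR-143-3p. The females stood at 0, 0.265, 18.1, 24.9 and 521.5 CPM and all 5 males at 0, so the groups overlap at 0 (edgeR quasi-likelihood, adjusted p = 0.00109). chr17_42406-3p was called in 2 tissues in opposite directions. In glandular stomach the females stood at 0.386, 0.942, 3.94, 8.37 and 249.9 CPM and the males at 0.158, 0.204, 0.211, 0.733 and 3.65 (log2 difference 5.79, adjusted p = 0.00128 by edgeR). In cerebrum the females stood at 0 to 1.95 CPM and the males at 0.217, 0.338, 2.98, 21.5 and 211.6 (log2 difference -5.63, adjusted p = 0.0196 by edgeR). In both tissues 1 library exceeded the other 9 by a wide margin. Whether the 2 tissues differ was not tested.

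The other calls named by adjusted p had the same form. chr10_30608-pre in whole blood had 0.237, 1.21, 1.27, 1.83 and 32.3 CPM in females and 0 to 1.27 in males (adjusted p = 0.00178 by edgeR). chr2_7929-3p in adrenal had 0.835, 4.40, 5.84, 10.7 and 187.3 CPM in females and 0.275 to 5.90 in males (adjusted p = 0.00204 by edgeR). chr1_645-3p in adrenal had 51.6 CPM in 1 female and at most 0.454 in the other 9 rats (adjusted p = 0.00264 by edgeR). In each, 1 library stood far above the other 9. Leaving out single rats moved the number of calls between 23 and 89.

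Of the 55 calls 49 were higher in females and 6 in males, 5 of which are named by the rule. This balance turned with limma voom, which called 3 higher in females and 8 in males. It was 17 to 8 with adjustment over all names and tissues together, and 40 to 30 with the left-out libraries kept. chr19_44386-5p in biceps femoris had 58.6 CPM in 1 male, 0.205 in another and 0 in the other 8 rats (adjusted p = 0.00601 by edgeR). chrX_48792-3p in non-glandular stomach had 40.8 CPM in 1 male and 0.168 CPM in 1 female, with the other 8 at 0 (adjusted p = 0.0197 by edgeR). chr2_8198-3p in adrenal had 66.6 CPM in 1 male and at most 1.31 CPM in the rest (adjusted p = 0.0214 by edgeR). chr19_44608-5p in hippocampus had 36.8 CPM in 1 of 3 males and 0 in the other 6 libraries (adjusted p = 0.0323 by edgeR).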

How the data were processed

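Small RNA libraries were sequenced on an Illumina HiSeq instrument. The authors removed adaptors with cutadapt 1.4.1, discarded reads under 17 bases or with an N, combined identical sequences, and assigned them with miRDeep2 to miRBase 20 hairpins of rat and then of other species. In a separate pass all reads were aligned to the rat genome (RN5) to predict hairpins, and a prediction not recognised as a known miRNA was added to the names of its reads. A sequence that aligned to several precursors received a composite name, and "-pre" marks reads outside the mature arms. The deposited tables hold raw counts per name, and per sequence, in each run, with no normalization.

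The members and all lists were chosen with earlier results of these data known. Runs were summed per library, leaving out 14 runs that repeat a flow cell lane, and CPM was taken by library total. Depth was 376401 to 17725805 counts per library, with a median of 4777568. Where rat numbers are shared by tissues, the libraries come from the same rat, and rat is nested in sex. Females and males were compared with edgeR 4.0.16 (limma 3.58.1, R 4.3.3) with upper quartile scaling, filterByExpr and 1 coefficient per tissue and sex, with DESeq2 1.42.0 and limma voom as alternatives. The test was first run on simulated data with known changes in liver. It recovered 38 of 67 changes of 2-fold, 59 of 67 of 4-fold and 65 of 66 of 8-fold. Of its 176 calls 14 were false.

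Named were the 12 members with the highest means, the first of each label, members with 90% in 1 label and 10 CPM or more, up to 5 called per direction between the sexes, those nearest to the threshold, pairs of arms and members with a RefSeq seed. Members of these sets without values in the text are covered by the counts. Those in the paragraphs on runs and hairpins were partly chosen after their values were seen. Every sequence was read from the isomiR table, and 551 of 551 members had one, or from RefSeq. No genome was used. Python 3.11.15 with pandas 2.3.3, numpy 2.4.6 and matplotlib 3.10.9 was used for all else. Other scalings, thresholds, run choices and left-out rats were tried.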

Additional observations from a re-analysis of the deposited data

Results flagged for a closer look

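In 19 of the 57 named members tested, 1 library of the highest label lay far from the others, by Dixon's 95% limit on its gap to the next library. Chance alone would pass this limit in about 1 in 20 groups, but that rate does not apply here, because the label was chosen for its highest mean, which 1 high library can set, and some members were named as calls between the sexes. Each value is the CPM of that library, and the next one follows. In uterus rat 7, chr5_16990-5p had 60.7 CPM and the next library 0.528. In ovary rat 11, the library with intestinal markers, the 2-part name beginning chr19_44561-3p had 190.9 CPM and the next 4.43. In testis, chr10_30608-pre had 274.8 CPM in rat 6 and 22.7 in the next library, chr4_14541-3p had 39.9 CPM in rat 3 and 10.3 in the next, and chr17_41823-5p, whose name notes the seed of miR-96-5p, had 124.5 CPM in rat 6 and 39.1 in the next.

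In glandular stomach rat 11 chr4_14984-5p had 2032 CPM and the next library 119.2, and in rat 8 chr17_42406-3p had 249.9 and the next 8.37. In heart rat 11 chr4_14982-3p had 521.5 CPM, followed by 24.9, in adrenal rat 6 chr2_8198-3p had 66.6, followed by 1.31, and in biceps femoris rat 2 chr19_44386-5p had 58.6, followed by 0.205.

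Of the brain labels, chr8_25065-5p had 112.7 CPM in hippocampus rat 11 against 40.6 in the next, chr19_44608-5p had 36.8 in hippocampus rat 4 against 0, and in cerebrum rat 9 both the 5-part name beginning chr16_39821-3p, at 242.7 against 72.7, and chrX_47795-5p, at 7.25 against 2.77, stood apart. In the gut chr14_38056-3p had 32.2 CPM in duodenum rat 10 and 5.46 in the next, chr20_47443-5p had 141.7 in ileum rat 2 and 24.5 in the next, and chr1_1566-5p had 43.3 in pancreas rat 4 and 8.26 in the next. In kidney cortex rat 4 chr10_31007-3p had 52.1 CPM, followed by 9.63, and in liver rat 9 chr10_32021-5p, whose name notes the seed of miR-378a-3p, had 180.6 CPM, followed by 19.2. The part of the column labels in these values was not tested member by member.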

How the results depend on the processing

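Alternatives that use the lower run of a library or predicted-only totals were chosen after seeing the data. The number of predicted miRNAs was 551 and moved to 1144 with the runs of flow cell D1GBMACXX alone and to 224 with the lower run, and it lay between 373 and 557 under the other settings that change runs, libraries, scaling or threshold and between 528 and 618 with single rats left out. The number highest in testis, 316, moved to 109 with TMM scaling, 78 with upper quartile scaling, 150 with at least 10 counts required, 54 with the lower run and 43 with counts scaled to the predicted-only total, and lay between 226 and 387 with single rats left out. With the same 551 members kept, scaling to the predicted-only total gave 117. The median share of the highest label moved to 16.4% with that last scaling and lay between 23.5 and 28.2% with single rats left out. The number with the same highest label in both sexes stayed within 1.5 times of 105, between 80 and 135 under settings and between 85 and 134 with single rats left out. The median share of the most common 5′ end moved from 82.6% to 94.9% with sequences of 10 counts or more, 90.4% in libraries of the highest label and 87.4% for members of 1000 counts or more.

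The 55 calls between the sexes became 531 with no filter beyond 1 count, 25 with adjustment over all names and tissues together, 189 with DESeq2, and 11 with limma voom, both with the rat as a replicate block and without the block. Over all names the 239 calls became 961, 176, 502 and 130 under the same settings. Rat is nested in sex, so the block pairs no libraries of the 2 sexes. With single rats left out the calls ranged from 23 without rat 3 to 89 without rat 8, with 34, 32, 31 and 36 without rats 2, 4, 5 and 6. Of the 57 named members, 17 moved by over 1 SD of their highest mean with D1GBMACXX alone, 15 with the lower run and none under the other settings run on them. Depth limits testis most, where 2 counts pass the rule.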
